A study of Mus musculus with 6 samples.

Results

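The array hybridised with islet RNA collected at zeitgeber time 4 (ZT4, 4 h after lights on) was compared with the other 5 arrays of the series. It was chosen by its title and was 1 of 6 arrays. Islets, the endocrine part of the pancreas and the source of insulin and glucagon, had been isolated with collagenase from male C57BL6 mice of 8 weeks. The mice were fed rodent chow and kept under 12 h of light, which began at ZT0, and 12 h of dark. Islets were taken at 4 h intervals, from ZT0 to ZT20. At each time point total RNA of a pool of 3 to 5 mice was labelled with Cy3 and read on 1 Agilent array, so no time point had a replicate. The number of mice in a given pool was not stated beyond that range. All 6 groups shared strain, sex, age and diet, and differed by label in the time of collection alone.

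The pancreas lies against the duodenum, and its mesentery carries lymph nodes, fat and vessels, so tissue taken for islet isolation can hold other cell types beside endocrine, duct and acinar cells. The intestinal lining is made of absorptive cells with a brush border, goblet cells that secrete mucus and trefoil factors, Paneth cells, hormone cells and stem cells, over a wall of smooth muscle with its own neurons and glia. Endocrine cells are known by their hormones, by granins and the enzymes that process prohormones, and by transcription factors such as PDX1 and PAX6. The lists of genes described below stand for these cell types. Whether tissue from outside the pancreas was in these islet pools, or from which part of the gut, was not tested.

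The ZT4 array was the dimmest of the 6. Of its 43020 spots, 66.1% were well above background, against 70.8% to 84.4% on the others, and the 75th percentile of its probes was at an intensity of 506, against 1229 to 2090. No spot was saturated (0 on each array). Over probes printed in repeat, the median standard deviation (SD) of the log2 signal was 0.0611 on the ZT4 array and 0.0541 to 0.0903 on the others, which is technical spread within one hybridisation. The ZT4 array had been read in a scan of its own, as had ZT0 on another day, whereas ZT8, ZT12, ZT16 and ZT20 shared one. For ZT4, scan, pool of mice and time point cannot be told apart. The transcripts of the labelled tissue were bright on every array: the insulin genes Ins1 and Ins2 lay between 6.94 and 8.75 log2 units above the 75th percentile of each array. Across 24127 genes, which are not independent replicates, the correlation with the ZT4 array was highest for ZT12 (Pearson's r 0.9369) and lowest for ZT20 (0.8505).

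Levels below are log2 processed signals relative to the 75th percentile over the probes of the same array, so that 0 is that percentile, and 6 levels in a row stand for ZT0, ZT4, ZT8, ZT12, ZT16 and ZT20. The difference of a gene is its level on the ZT4 array minus the median of the other 5, in log2 units. It was computed on this scaling and again on the values that the authors deposited, and a gene is called above or below where it was at least 2-fold apart in one direction under both. For the difference, a spot not well above background was raised to the lowest value among detected probes of its array where it lay under it. Otherwise it kept its own value. A fold of a gene not detected on one side is thus taken as a lower bound. With 1 array on one side no test was made, and the smallest p that an exact permutation of 1 array against 5 allows is 0.167. Over all 24127 genes, 3480 (14.4%) were above and 2838 (11.8%) below. Of these, 565 above and 572 below had several probes, and all probes passed the limit in 155 and 167 of them. Most calls with several probes therefore rest on some of the probes only. Only 403 genes (1.67%) were at least 2-fold above each of the other 5 arrays under both scalings, and 527 (2.18%) below each of them. The median difference of all genes was 0.08 on the 75th percentile scaling and 0.13 in the authors' values.

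**Figure D1:**
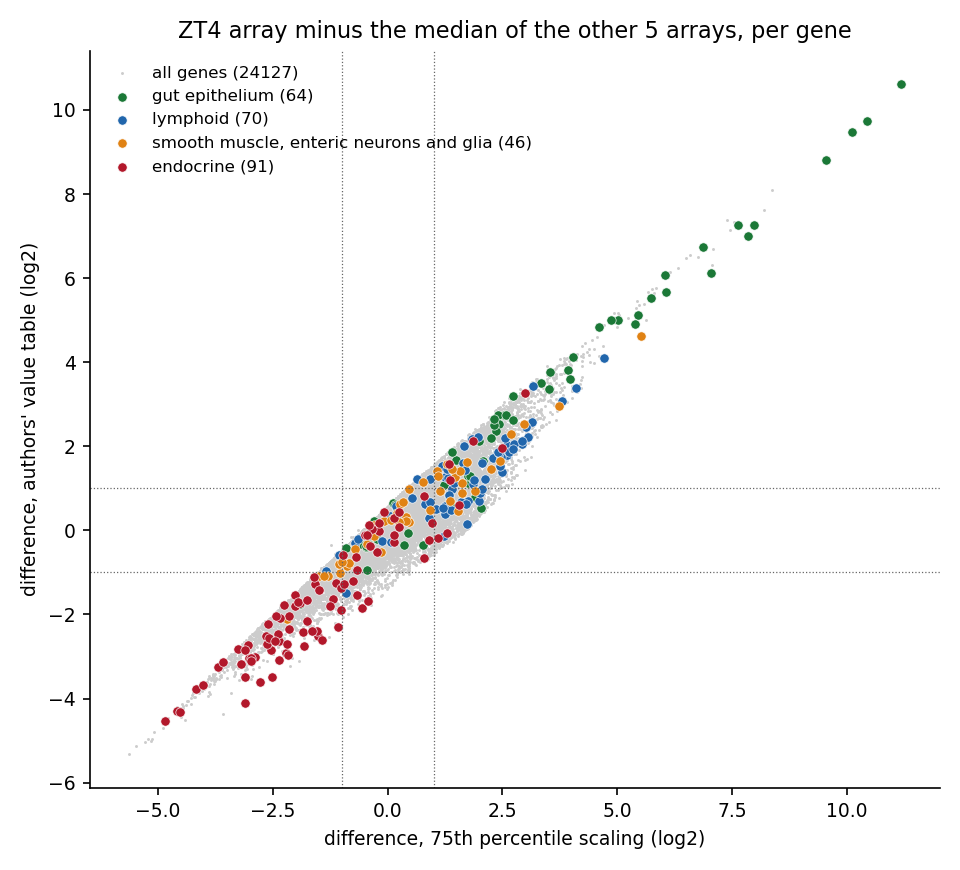
Each point is a gene, with the ZT4 array minus the median of the other 5 arrays in log2 units, on the 75th percentile scaling (x axis) and in the authors' values (y axis); dotted lines mark 2-fold. Gut genes reach 11.19 and 10.61 at the upper right and endocrine genes -4.85 and -4.54 at the lower left, and no gene was past 2-fold in opposite directions under the 2 scalings.

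Transcripts of the gut epithelium were the furthest above the other arrays. Of 64 measured genes in 3 lists (absorptive, goblet and Paneth, stem and enteroendocrine cells), 42 (65.6%) were above and 1 was below, beside 14.4% and 11.8% of all genes. Of the 42, 4 had been kept for their detection on ZT4, with under 3 of the other arrays above background, so that they could hardly be low; of the other 60 measured genes 38 (63.3%) were above. For 32 of the 42 the ZT4 level was at least 2-fold over each of the other arrays, beside 1.67% of all genes. The array next to ZT4 was ZT16 for 15 of the 42, ZT20 for 12, ZT12 for 8, ZT0 for 6 and ZT8 for 1, so that no single array shared the pattern. In bulk RNA, more cells of a type and more RNA per cell cannot be told apart, and the same holds for fewer cells and less RNA.

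The goblet cell genes held the largest differences. Spink4, a secreted goblet cell protein of the trypsin inhibitor family, was at -2.74, 6.80, -3.26, -4.57, 0.08 and -1.17. It was high on the ZT4 array alone, 748-fold over the median of the others on the 75th percentile scaling and 448-fold in the authors' values. Tff3, the intestinal trefoil factor of mucus, was at -5.32, 6.10, -5.09, -6.35, -2.25 and -2.48, with 4 of the other 5 arrays well above background, and was 2332-fold and 1564-fold higher. Agr2, a disulphide isomerase needed for mucin folding, followed at -4.41, 6.04, -4.44, -6.93, -0.10 and -2.94 (1397-fold and 846-fold). In all 3 genes ZT16 or ZT20 held the next levels, more than 6 log2 units under ZT4.

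Guca2a encodes guanylin, a peptide that drives chloride and water secretion into the gut lumen. Its levels were -4.61, 5.06, -2.91, -2.79, -2.72 and -2.42, which is 231-fold and 128-fold over the median of the others. All of the other 5 arrays were far under ZT4. The related uroguanylin gene Guca2b was at -1.98, 0.55, -4.32, -4.02, -4.57 and -4.65, so that ZT0 was the next array. Mptx1, a pentraxin of the gut mucosa, was detected on 3 of the other arrays and was 1110-fold and 715-fold higher on ZT4. Fcgbp, a structural protein of mucus, was 198-fold and 153-fold higher, and Spdef, a transcription factor of goblet cell maturation, 53.4-fold and 45.9-fold.

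In the goblet and Paneth list as a whole, 14 of 17 measured genes were above and 0 below, beside 14.4% and 11.8% of all genes. Of the 14, 12 were at least 2-fold over each other array, beside 1.67% of all genes. Without the 1 gene kept for its detection on ZT4, 13 of 16 were above. The median difference of the list was 3.98 on the 75th percentile scaling and 3.83 in the authors' values. The Paneth cell antimicrobial gene Ang4 was at -2.75, 1.82, -2.10, -3.94, -2.09 and -1.43. Lyz1, the Paneth cell lysozyme, was at 6.25, 6.82, 4.79, 5.75, 2.37 and 2.55 and was not called, with differences of 2.03 and 0.53. Zg16, which pancreatic acinar cells also make in quantity, was at 6.73, 7.09, 5.88, 4.75, 6.32 and 7.10 and was not called, nor was Mmp7, which duct cells can express (differences of -0.36 and 0.00).

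**Figure D2:**
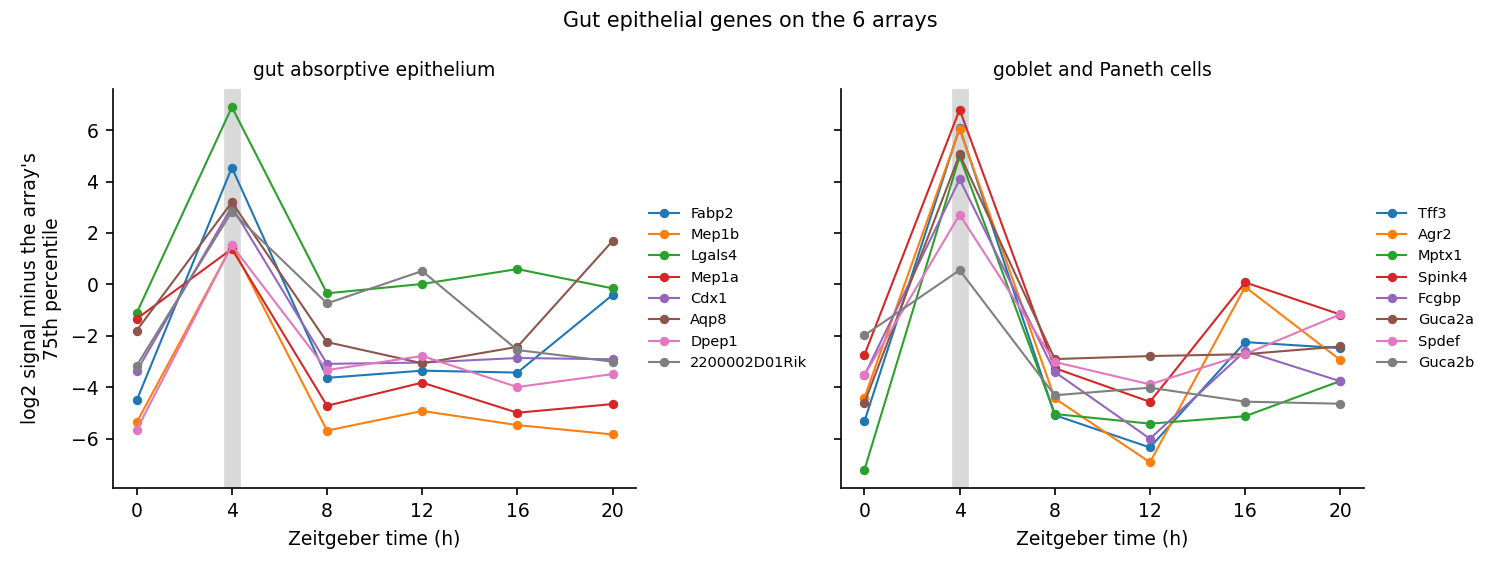
Lines give the level of each gene on the 6 arrays (log2 signal minus the 75th percentile of the array, against zeitgeber time in h), for the 8 absorptive genes on the left and the 8 goblet and Paneth genes on the right that were furthest above; the grey bar marks ZT4, and spots not above background are drawn at their own value. Every gene drawn peaks on the ZT4 array, from 0.55 for Guca2b to 6.90 for Lgals4.

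Among absorptive epithelial genes, 21 of 37 were above and 0 below, beside 14.4% and 11.8% of all genes. Of the 21, 15 were at least 2-fold over each other array, beside 1.67% of all genes. Without the 3 genes kept for their detection on ZT4, 18 of 34 were above. The median differences of the list were 2.08 and 1.65. Fabp2, the intestinal fatty acid binding protein, was at -4.51, 4.55, -3.64, -3.36, -3.43 and -0.41. It was 252-fold and 154-fold over the median of the others, with ZT20 as the next array, 4.96 log2 units lower. Lgals4, a galectin of intestinal epithelium, was at -1.11, 6.90, -0.35, 0.02, 0.60 and -0.16, 133-fold and 69.2-fold higher, and all 3 of its probes were past the limit. Both genes, with Spink4 and Guca2a, were well above background on all 6 arrays.

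The brush border protease genes Mep1a and Mep1b, which encode meprin subunits, were both above. Mep1a was at -1.34, 1.38, -4.72, -3.82, -5.00 and -4.66 and Mep1b, detected on 3 of the others, was 118-fold and 107-fold higher. Cdx1, a homeobox factor of intestinal identity, was at -3.38, 3.02, -3.09, -3.04, -2.87 and -2.92, with its other 5 levels close to each other. Other genes above were Dpep1, a brush border dipeptidase (32.2-fold and 31.8-fold), Car1, a carbonic anhydrase of colon epithelium and red blood cells (11.5-fold and 10.3-fold), and Myo1a, the brush border myosin (10.2-fold and 11.4-fold). Aqp8, a water channel of colon and pancreas, was at -1.80, 3.20, -2.25, -3.07, -2.43 and 1.69, so that ZT20 came within 1.51 log2 units.

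Not all absorptive genes were high on the ZT4 array. Fabp1, which liver and gut both make, was above the median of the others (differences of 2.53 and 2.75) but highest on ZT20, at 5.25 against -0.34 on ZT4. The sucrase-isomaltase gene Sis was at -2.16, -3.49, -3.34, -3.11, -3.03 and -2.71 (differences of -0.46 and -0.39). The genes for maltase-glucoamylase (Mgam), apolipoprotein A-IV (Apoa4) and the sodium-glucose cotransporter (Slc5a1), all of small intestinal absorption, were not above background on the ZT4 array. The genes for intestinal alkaline phosphatase (Alpi, differences of -0.23 and -0.21) and villin (Vil1, 0.36 and -0.36) were not called. Among bright members, Anpep (0.45 and -0.07), Car4 (1.47 and 0.56) and Plac8 (1.90 and 0.80) were not called either.

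Of 10 measured stem cell and enteroendocrine genes, 7 were above and 1 below, beside 14.4% and 11.8% of all genes. Median differences of the list were 1.45 and 1.77. Sct, which encodes secretin, was at -5.25, 0.63, -3.42, -2.41, -3.67 and -3.04, 16.6-fold and 17.5-fold higher. Insl5, a peptide hormone of colonic endocrine cells, was at -3.80, -0.25, -3.89, -4.22, -2.17 and -3.15, 11.6-fold and 13.6-fold higher, and the stem cell factor gene Ascl2 was 5.00-fold and 6.26-fold higher. Lgr5, the receptor that marks intestinal stem cells, stayed dim at -4.55, -3.14, -4.91, -4.78, -4.64 and -4.34 but was past the limit (2.81-fold and 3.21-fold). The member below was Neurog3, the factor of endocrine progenitors in gut and pancreas, at 0.62, -1.76, -1.17, -2.92, 0.14 and 0.23, where ZT12 was lower than ZT4.

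The summed signal of the 64 gut genes was 932 times the 75th percentile on the ZT4 array and 148 (ZT8) to 398 (ZT0) times on the others. The ZT0 sum held Car4 at 7.23 and Zg16 at 6.73, which were not called. Of the 90 genes listed, 10 had no probe by that name, 2 had outlier spots, 6 were not above background and 8 were absent from the authors' values. The count above ranged from 41 to 44 when each of the other arrays was left out and was 33 with a 4-fold limit.

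The authors' values hold no probe that was detected on the ZT4 array alone: of 119 such probes, 0 were among them. These genes could therefore be compared on the 75th percentile scaling only. There were 254 genes that met the detection rule and were missing from the authors' values, 100 of them detected on no other array and the rest on 1. All 254 had been kept through the ZT4 array, which nearly fixes that they are not below there, so how many were above is no result. The values of the 8 gut list members among them are given as a description. Clca1, a goblet cell protein that processes mucus, was at 6.51 on the ZT4 array and was not well above background on any other, which makes it at least 4545-fold higher. Retnlb, a resistin-like protein of goblet cells, was at 5.84 and at least 2853-fold higher, again with 0 of the other arrays above background. Phgr1, an abundant transcript of gut epithelium, was at 4.66 and detected on 1 other array, at least 1259-fold higher. Cdx2, the homeobox factor that sets intestinal identity, was at 0.76 (at least 84.8-fold), and the chloride exchanger gene Slc26a3 at -0.89 (at least 27.0-fold), both detected on ZT4 alone. Itln1 (at least 169-fold), Lypd8 (at least 176-fold) and Atoh1, a factor of secretory cell fate (at least 28.3-fold), were each detected on 1 other array.

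Promoter windows of RefSeq (build GRCm38.p6, 250 bases before to 50 after each annotated start) were searched on both strands for TTTATNG, the core letters of sites bound by CDX factors, since Cdx1 and Cdx2 were themselves high on the ZT4 array, and for CAAAGTNCA, a HNF4 type site. The first was found in 8 of 33 windows of gut genes that were above (24.2%), in 4 of 20 of those measured and not above (20%) and in 12.5% of 27025 genes. The second was found in 1 of 33, 3 of 20 (15%) and 1.64%. Among the TTTATNG matches of genes above, those of Sct and 2210407C18Rik read CTATAAA on the strand of the gene, beginning at -29 and -28. A match describes the letters in a window, need not be a CDX or HNF4 site, and shows no binding. The matches of Fabp2 and Agr2, which were among the largest differences, are shown 5′ to 3′ on the strand of the gene with the motif in capitals; Fabp2 (chr3:122894987-122895033 and chr3:122894915-122894963, plus strand) held both motifs, beginning at -65 and -137 from the start, and Agr2 (chr12:35992857-35992903, plus strand) held TTTATNG on the opposite strand at -48.
Fabp2, TTTATNG: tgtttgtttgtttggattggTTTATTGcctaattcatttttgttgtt
Fabp2, CAAAGTNCA: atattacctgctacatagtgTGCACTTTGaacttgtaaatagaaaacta
Agr2, TTTATNG: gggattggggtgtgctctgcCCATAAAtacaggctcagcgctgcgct

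Smooth muscle genes were also above, less far and with ZT12 often close. Of 34 measured, 14 (41.2%) were above and 2 (5.88%) below, beside 14.4% and 11.8% of all genes. Those at least 2-fold over each other array numbered 2, beside 1.67% of all genes. Median differences of the list were 1.12 and 0.91. The median of the smaller difference per gene was 0.83, and 0.49 without ZT16 or ZT20. The list's summed signal was 467 times the 75th percentile on ZT4, against 56.3 (ZT16) to 216 (ZT12) on the others. Actg2, the gamma actin of visceral smooth muscle, was at -0.69, 5.94, 0.43, 1.15, -3.79 and 0.92, 45.6-fold and 24.6-fold higher. Cnn1, which encodes calponin, was at 0.99, 4.53, 0.80, 1.55, -4.59 and -0.23, 13.3-fold and 7.74-fold higher. Both genes stood clear of the other arrays and were lowest on ZT16.

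Tpm2, a tropomyosin, was at 0.08, 3.05, 1.95, 1.91, -2.15 and -0.39, and both of its probes were past the limit (7.82-fold and 5.81-fold for the brighter one). It was the only 1 of 5 smooth muscle genes above with several probes in which all probes passed. Pdlim7 (6.41-fold and 4.91-fold), Csrp1 (5.48-fold and 3.14-fold) and Myl9, the regulatory light chain of smooth muscle myosin (4.80-fold and 2.76-fold), were above as well. Acta2 and Tagln, which vascular smooth muscle and myofibroblasts share, were highest on ZT4 but not called: Acta2 was at 4.31, 5.93, 4.38, 4.90, 0.70 and 2.41 (differences of 1.62 and 0.90) and Tagln differed by 1.91 and 0.93. Members below were Myh11, the smooth muscle myosin heavy chain, at -2.73, -4.37, -1.11, -3.33, -5.82 and -4.63, and Casq2, a calcium store protein, by -1.50 and -1.08. Myh11 was higher on ZT4 than on ZT16 and ZT20. Without the ZT8 array 0 members were below, and without ZT16 or ZT20, 1.

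The CArG box, the site of serum response factor, was searched for on both strands in the windows of the smooth muscle genes, since many contractile genes carry it. It was found in 1 of 11 windows of those above (9.09%), in 1 of 17 of those measured and not above (5.88%) and in 1.81% of all genes. The match was in Myl9 (chr2:156775283-156775332, plus strand), beginning at -161 from the annotated start. It is shown with the box in capitals.
Myl9, CArG box: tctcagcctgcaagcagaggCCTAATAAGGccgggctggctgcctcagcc

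Genes of enteric neurons and glia did not follow the smooth muscle genes. Of 12 measured, 0 were above and 3 below, beside 11.8% of all genes below, with median differences of -0.65 and -0.54. Taking the smaller of both differences per gene, the median was -0.54, and it lay between -0.40 (without ZT12) and -0.08 (without ZT20) when any one of the other arrays was left out. Among them were Vip, a neuropeptide of enteric neurons and of nerves in islets, at 0.44, -1.73, 0.46, -5.17, 1.43 and 1.79, and the neuronal transcription factor gene Hand2 (differences of -1.39 and -1.08). Both were lower still on ZT12. The glial gene S100b (0.33 and 0.67) was not called.

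**Figure D3:**
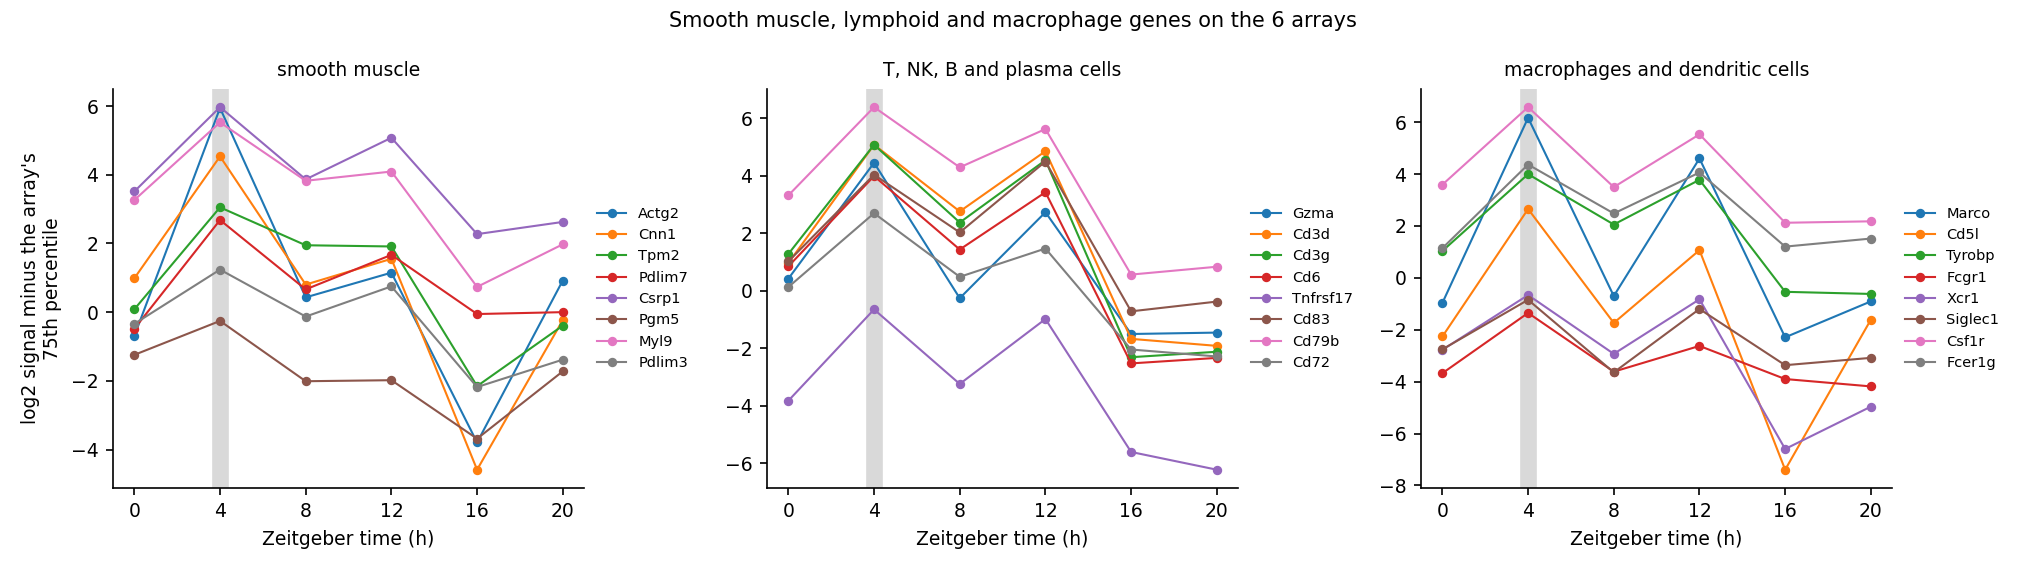
Lines give the levels of the genes furthest above (8 smooth muscle, 4 T and NK with 4 B and plasma cell, and 8 macrophage and dendritic cell genes) (log2 signal minus the 75th percentile of the array, against zeitgeber time in h), with ZT4 marked in grey. Actg2 and Cnn1 stand over every other array on ZT4, at 5.94 and 4.53, whereas the lymphoid and macrophage genes are high on ZT12 too, as for Cd3d at 5.07 on ZT4 and 4.85 on ZT12.

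Lymphoid genes were above the median of the other arrays, but the ZT12 array shared this. Of 70 measured members of 3 lists, 35 (50%) were above and 0 below, beside 14.4% and 11.8% of all genes, and ZT12 was the next array for 34 of the 35. A single member of the 70, Gzma, was at least 2-fold over each other array, beside 1.67% of all genes. The median deviation of the lymphoid genes from their own medians over the 6 arrays was 1.18 on ZT4 and 1.44 on ZT12, and came to -3.19 and -2.92 for ZT16 and ZT20. The summed signal was 1654 times the 75th percentile on ZT4, 1201 on ZT12 and 142 to 546 on the others. The count above depended on which arrays formed the median: it was 54, 55 and 56 without ZT0, ZT8 and ZT12, and 27 and 26 without ZT16 and ZT20. Without ZT8, ZT12, ZT16 or ZT20, 1 lymphoid gene was below.

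Among T and NK cell genes, 14 of 30 were above, beside 14.4% of all genes, with median differences of 1.65 and 1.1. Gzma, a granzyme of cytotoxic cells, was at 0.42, 4.45, -0.26, 2.73, -1.50 and -1.45, 26.1-fold and 17.2-fold higher. The T cell receptor complex genes Cd3d, at 0.96, 5.07, 2.75, 4.85, -1.67 and -1.92, and Cd3g, at 1.28, 5.07, 2.37, 4.53, -2.31 and -2.12, were high on ZT4 and ZT12 alike. Cd3d was 17.3-fold and 10.5-fold over the median, and Cd3g 13.9-fold and 8.44-fold. The third chain, Cd3e, was at 3.36, 5.97, 3.97, 5.36, 4.63 and 3.36 and was not called (1.99 and 0.71). Other genes above included Zap70, the kinase of that receptor (6.03-fold and 4.05-fold), Ccr7, a homing receptor for lymph nodes (5.65-fold and 2.61-fold), and Cd8b1 (2.36-fold and 2.40-fold). Tcf7, a factor of naive T cells, was not called but lay lower on ZT4 than on ZT12, ZT0 and ZT8, at 3.15, 1.92, 2.82, 3.99, -2.38 and -1.96. Without the ZT0, ZT8 or ZT12 array the T and NK count was 22, 22 and 23, and the median of the smaller difference per gene, 0.95 with all arrays, was 2.36, 2.31 and 2.53.

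Of 28 B and plasma cell genes, 13 were above and 0 below, beside 14.4% and 11.8% of all genes. Median differences of the list were 1.41 and 0.90. Cd79b, a chain of the B cell receptor, was at 3.31, 6.38, 4.29, 5.62, 0.56 and 0.83, 8.37-fold and 4.67-fold higher. Tnfrsf17, the plasma cell receptor BCMA, was detected on 3 of the other arrays and was 9.01-fold and 10.8-fold higher, whereas Jchain, the joining chain of secreted antibody, was at 6.08, 6.19, 4.97, 6.16, 2.56 and 1.33 and was not called. Ms4a1, which encodes CD20, was not called either (1.24 and 0.38). The count was 24, 25 and 25 without ZT0, ZT8 and ZT12 and 8 without ZT16 or ZT20. The median of the smaller difference per gene was 0.90 with all arrays and 2.47, 2.38 and 2.53 without ZT0, ZT8 and ZT12.

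Genes of lymph node stroma and lymphatic vessels were above for 8 of 12 measured members, with 0 below. The shares of all genes were 14.4% and 11.8%. Median differences of the list were 1.85 and 1.5. Glycam1, a ligand made by high endothelial venules, was at 2.53, 5.45, 4.46, 5.74, -0.15 and 1.35, and Madcam1, a homing molecule of gut-associated vessels, at 2.68, 4.92, 2.48, 4.17, -1.09 and -0.18. Glycam1 was higher on ZT12 than on ZT4. The chemokine gene Ccl19 was at 1.60, 4.02, 3.15, 4.91, -1.04 and -0.62, but 1 of its 3 probes passed the limit, and Lyve1, a lymphatic and macrophage hyaluronan receptor, was 4.16-fold and 3.02-fold higher. The follicle chemokine gene Cxcl13 was not called (0.07 and -0.27). Without ZT16 or ZT20 the count was 5 and the median of the smaller difference per gene 0.95, against 1.49 with all arrays, and without ZT8 or ZT12 that median was 2.47 and 2.53.

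Macrophage and dendritic cell genes were above for 14 of 25 (56%), with 2 below (8%), beside 14.4% and 11.8% of all genes, and ZT12 was next for 13 of the 14. The median over genes of the smaller of both differences was 1.53, and 0.97 without ZT16. Marco, a scavenger receptor of lymph node and splenic macrophages, was at -0.96, 6.17, -0.70, 4.60, -2.29 and -0.91, 135-fold and 78.8-fold over the median, and stood high on ZT4 and ZT12 alone. Cd5l, a secreted macrophage protein, was at -2.26, 2.65, -1.74, 1.07, -7.39 and -1.61, with 4 of the other arrays above background (21.0-fold and 17.9-fold). Csf1r, the receptor of the macrophage growth factor CSF1, was at 3.59, 6.58, 3.50, 5.53, 2.12 and 2.18 (8.46-fold and 4.39-fold), though 1 of its 3 probes passed the limit. The genes below were Lyz2, the myeloid lysozyme, at -0.05, -3.28, 1.15, 1.82, -4.01 and -2.51, and H2-Aa, a class II chain, at 0.09, -3.34, 1.59, 0.64, -3.17 and -2.91. On these probes ZT4 lay with ZT16 and ZT20, and other class II pathway genes did not: Cd74 was 6.68-fold and 3.69-fold higher and H2-Ab1 differed by 1.90 and 0.78. The summed signal of the list was 819 times the 75th percentile on ZT4, 453 on ZT12 and 57.8 to 334 on the others.

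Adipocyte genes were above for 5 of 26 (19.2%), near the 14.4% of all genes, and 1 was below, with median differences of 0.25 and 0.33. Of the 5, Pck1 had been kept for its detection on ZT4, and of the other 25 genes 4 (16.0%) were above. Angptl4, a lipase inhibitor that fat, liver and gut make, was at 1.89, 3.94, -0.67, 1.89, -3.22 and -1.40, 24.4-fold and 17.6-fold higher. Adipoq, the adipocyte hormone adiponectin, stayed dim at -5.20, -3.83, -5.16, -4.00, -7.28 and -5.79 and was detected on 3 of the other arrays (2.55-fold and 3.26-fold). Slc2a4, the insulin-regulated glucose transporter of fat and muscle, was 4.76-fold and 4.20-fold higher, Retn, which encodes resistin, 2.80-fold and 3.83-fold, and Pck1, detected on 2 of the others, 7.17-fold and 7.16-fold with ZT20 above ZT4. The defining genes Lep and Ucp1 were not above background, Plin1 (0.83 and 1.17) and Fabp4 (1.36 and 0.51) were not called, and the member below was Lpl, lipoprotein lipase, at 1.58, -0.79, 1.48, 0.12, 1.96 and 3.11. The summed signal was 55.1 times the 75th percentile on ZT4 and 22.9 (ZT16) to 57 (ZT20) on the others. Without ZT8 or ZT12, 3 members were below, and without ZT0, 2. The median of the smaller difference per gene, 0.13, was 0.38 without ZT20 and at most 0.07 without ZT0, ZT8 or ZT12.

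Over the lists of other cell types, with the Reg and reference genes, 18 of 115 genes (15.7%) were above and 16 (13.9%) below. These shares were near the 14.4% and 11.8% of all genes. Of the 18, 2 had been kept for their detection on ZT4, Reg4 and 1 hepatocyte gene. Of the other 113 genes 16 (14.2%) were above, and of the other 12 hepatocyte genes 3. Of 23 acinar genes 1 was above and 1 below, but 9 were above on the 75th percentile scaling alone, 6 below in the authors' values alone and 11 below with loess, and the list's median was 0.47 on the 75th percentile scaling and -0.48 in the authors' values, so that it has no direction. The acinar factor gene Rbpjl (5.34-fold and 4.35-fold above) was near its ZT20 level, and Cela1, an elastase, was below (-1.81 and -2.67). Duct genes were above for 3 of 17 and below for 2; Krt19, a keratin of duct, gut and mesothelial cells, was at -2.27, 1.84, 0.02, -3.38, -1.26 and -2.35 and at least 2-fold over each other array. Krt7, another duct keratin, was not called (-0.95 and -0.68). Of 5 mesothelial genes Krt19 alone was above. Fibroblast genes were above for 3 of 18 and below for 2, endothelial genes for 4 and 3 of 14, hepatocyte genes for 4 and 3 of 13, and red blood cell genes for 2 and 0 of 6. These counts changed by more than 1.5 times when single arrays were left out: without ZT8, fibroblast genes came to 5 above and 0 below, endothelial genes below to 1 and hepatocyte genes above to 2. Endothelial genes above came to 2 without ZT0, ZT16 or ZT20, hepatocyte genes below to 0 without ZT16 or ZT20 and above to 2 without ZT16. Duct genes below came to 4 without ZT12 or ZT16, acinar genes below to 2 without ZT0, ZT8 or ZT12, mesothelial genes below to 2 without ZT12 and to 1 without ZT0, ZT8 or ZT16, and fibroblast genes below to 1 without ZT0, ZT12, ZT16 or ZT20. For the hepatocyte genes above, ZT20 was higher than ZT4, as in Hp, at -5.06, -1.17, -4.11, -2.42, -4.62 and 2.84.

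**Figure D4:**
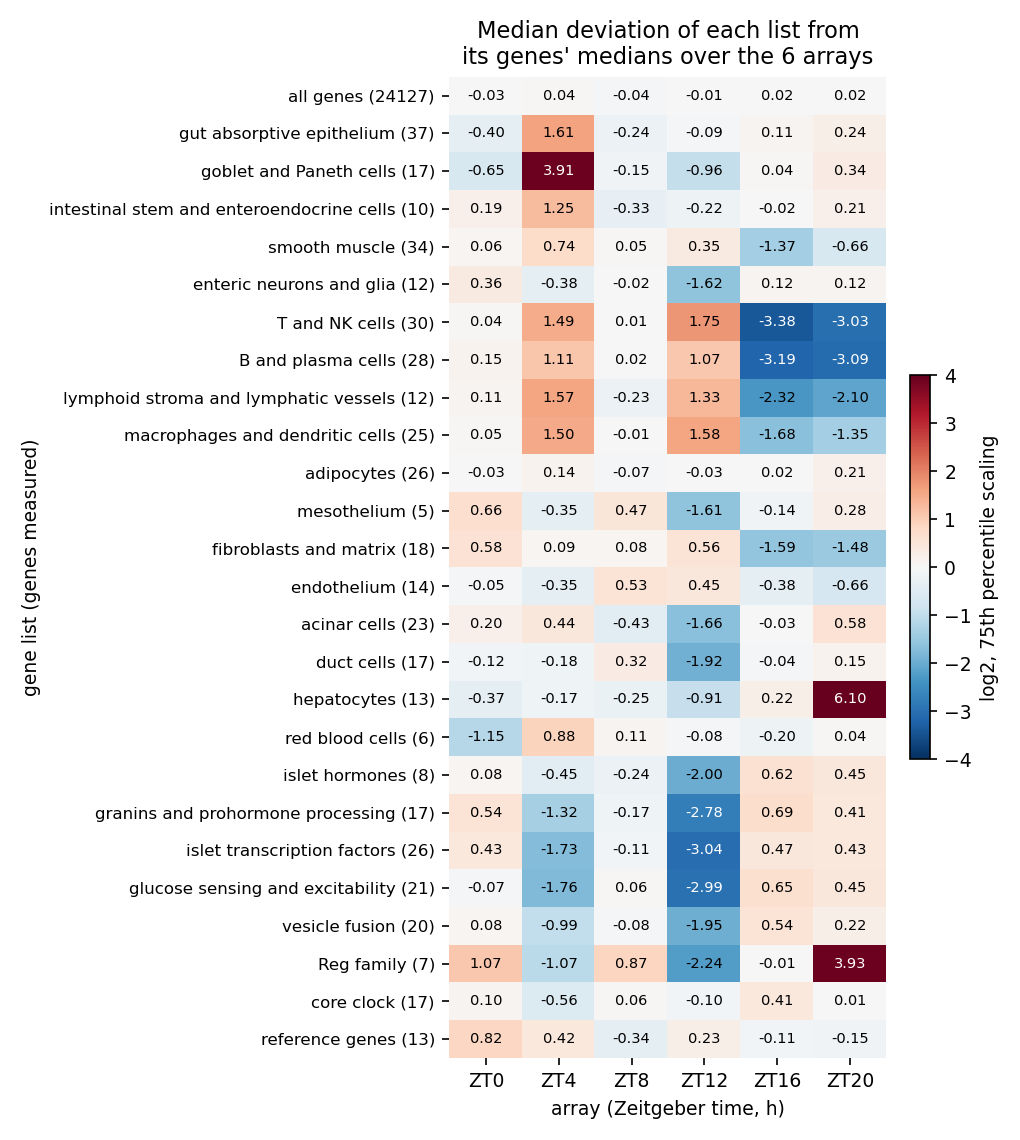
Each cell gives the median, over the measured genes of a list (number in brackets), of the gene's level on an array minus its median over the 6 arrays, in log2 units on the 75th percentile scaling; red is above, blue below, and the colours end at 4, which the hepatocyte list passes on ZT20 (6.10). The goblet and Paneth list stands at 3.91 on ZT4 and between -0.96 and 0.34 on the others, while the lymphoid and macrophage lists are high on both ZT4 and ZT12.

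Endocrine genes were the largest group below the other arrays. Of 91 measured genes in 5 lists, 57 (62.6%) were below and 5 above, beside 11.8% and 14.4% of all genes. Of the 5 above, 1 had been kept for its detection on ZT4. Of the other 90 measured genes 57 (63.3%) were below and 4 above. For 56 of the 57 the next array was ZT12, and 0 were at least 2-fold below each of the other arrays, so the low levels were shared with ZT12, where the median deviation was -2.48 against -1.28 on ZT4. Their summed signal was 1754 times the 75th percentile on ZT4, within the 703 (ZT12) to 3503 (ZT0) of the others. The gut, lymphoid, macrophage and smooth muscle sums given above were highest on the ZT4 array. All sums are on the 75th percentile scaling alone and weigh bright genes most. ZT4 also had the highest sum for acinar (3540, against at most 3247), reference (1495, at most 1436) and hormone genes (1103, at most 1045), though not for every list. The part of the gut, lymphoid, macrophage and smooth muscle sums in the lower endocrine levels was not tested. Leaving out single arrays gave 49 to 59 genes below, and a 4-fold limit 35.

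The hormones did not move together. Ins1 was at 7.38, 8.29, 6.99, 6.99, 7.39 and 7.19 and Ins2 at 6.94, 8.75, 7.23, 7.44, 7.60 and 7.50. Both were brightest on ZT4 on that scaling (differences of 1.11 and 1.30) but not in the authors' values (-0.19 and -0.06), so neither was called; in the brightest decile of all genes the median difference was 0.92 on the former and -0.04 in the latter. Iapp, co-secreted with insulin, was not called (0.80 and -0.65). Hormone genes of the other endocrine cells were below. Sst, somatostatin of delta cells, was at 6.75, 3.58, 5.31, 1.72, 6.77 and 6.60, 8.10-fold and 8.14-fold lower than the median. Ppy, pancreatic polypeptide, was at 3.45, 1.92, 4.71, 1.18, 6.85 and 6.34 (6.89-fold and 12.2-fold lower), and Gcg, glucagon of alpha cells, at 7.83, 5.85, 6.87, 4.20, 7.54 and 7.36 (2.85-fold and 5.74-fold lower). In each of them ZT12 was lower still, as it was in Pyy, and Ghrl was not called (-0.19 and -0.02). The median of the smaller difference per hormone gene was -0.77, and -0.39 without ZT16 or ZT20 and -1.28 without ZT8 or ZT12.

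Among granins and prohormone processing genes, 12 of 17 were below and 0 above, beside 11.8% and 14.4% of all genes. Median differences of the list were -1.75 and -2.30. Chgb, chromogranin B of the secretory granule, was at 7.66, 3.36, 5.66, 2.54, 6.76 and 6.47, 8.62-fold and 17.1-fold lower. Scg3, a granin that sorts granule cargo, was at 6.42, 3.72, 5.44, 2.85, 6.63 and 6.26 (5.82-fold and 7.18-fold), and Ero1b, an oxidase for proinsulin folding, at 5.21, 2.77, 5.28, 2.91, 6.16 and 6.16 (5.71-fold and 11.2-fold). Levels of Ero1b on ZT4 and ZT12 differed by 0.14. The proinsulin convertase genes Pcsk1 (4.65-fold and 7.54-fold) and Pcsk2 (2.04-fold and 3.73-fold) and the zinc transporter gene Slc30a8 (3.55-fold and 6.71-fold) were lower too. Chga (-0.57 and -1.84) and Cpe (-0.43 and -1.69), both very bright, were past the limit in the authors' values alone.

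Of 26 islet transcription factor genes, 16 were below and 3 above, beside 11.8% and 14.4% of all genes. Median differences of the list were -1.96 and -1.92. Pax6, needed for all islet hormone cells, was at -2.08, -4.94, -0.09, -3.93, 0.10 and 0.39 and was not well above background on ZT4, so it was at least 28.9-fold and 23.2-fold lower. St18 (at least 24.0-fold and 19.5-fold) and Neurod1 (at least 18.1-fold and 13.6-fold) were also under background on ZT4, but the second probe of Neurod1 differed by -0.58 only. Rfx6, at 2.68, -0.66, 1.53, -1.83, 2.53 and 2.63, and Nkx6-1, a factor of beta cell identity, at 1.60, -1.17, 1.73, -2.52, 1.87 and 1.79, were detected on every array and lower on ZT12 than on ZT4. Pdx1 was 8.30-fold and 6.60-fold lower. The 3 genes above were Foxa1 and Hnf4a, which gut epithelium also expresses, and Pou3f4: Hnf4a was at 1.32, 3.82, 1.07, -1.71, 2.22 and 2.74 and Foxa1 at -1.25, -0.45, -2.91, -6.22, -4.83 and -3.44. Both were highest on ZT4, whereas Pou3f4, detected on 2 of the others, was higher on ZT8. Pou3f4 had been kept for its detection on ZT4, and without it 2 of 25 factor genes were above.

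**Figure D5:**
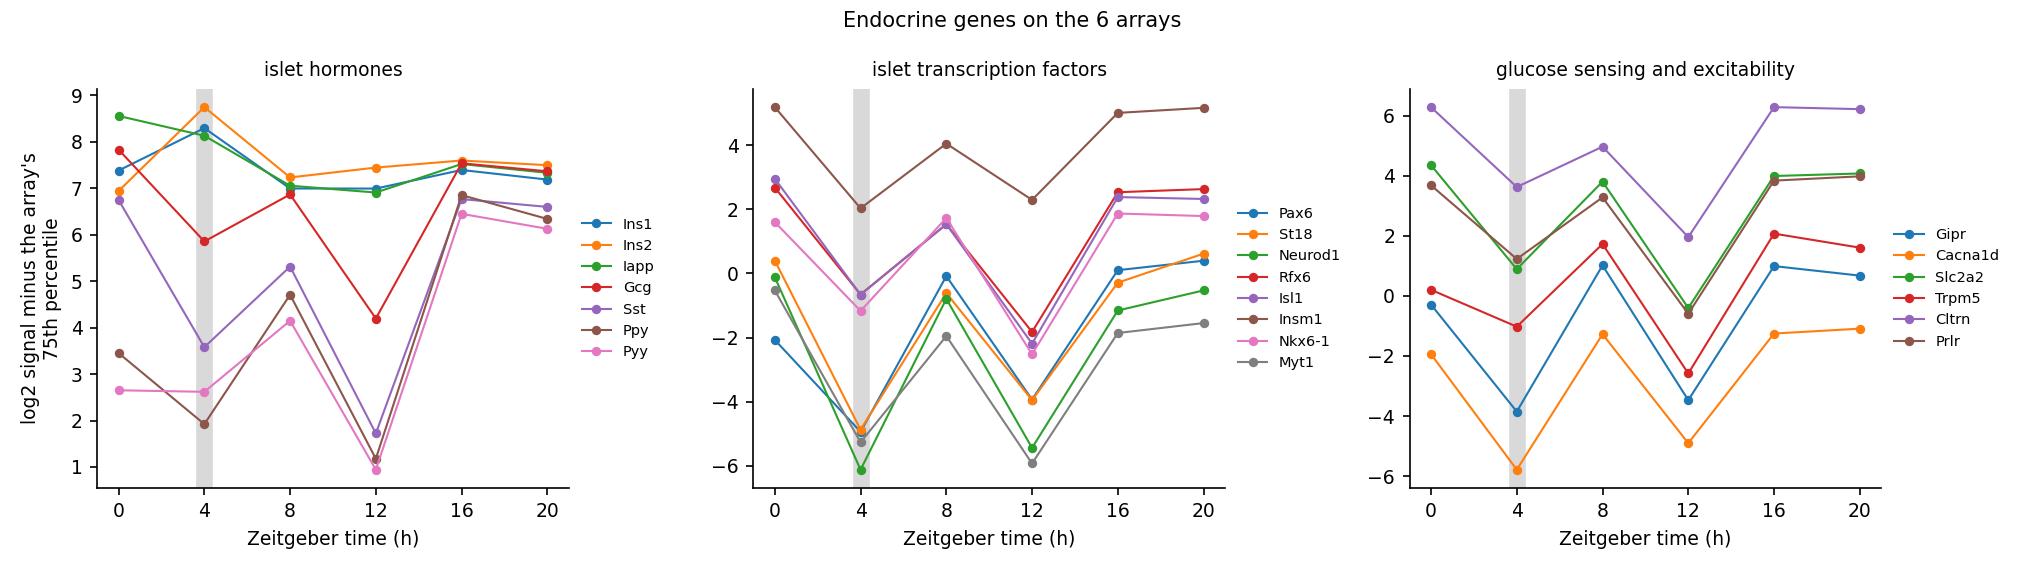
Lines give levels on the 6 arrays (log2 signal minus the 75th percentile of the array, against zeitgeber time in h), with ZT4 in grey: the bright hormone genes, and the 8 transcription factor and 6 glucose sensing genes furthest below. Ins1 and Ins2 stand at 8.29 and 8.75 on ZT4, while most other genes drawn are low on both ZT4 and ZT12, as Slc2a2 at 0.89 and -0.40.

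Genes of glucose sensing and excitability were below for 15 of 21 and above for 1, beside 11.8% and 14.4% of all genes. Median differences of the list were -2.14 and -2.35. Slc2a2, the glucose transporter GLUT2, was at 4.35, 0.89, 3.80, -0.40, 3.99 and 4.07, 8.57-fold and 11.2-fold lower. Gipr, the receptor of the gut hormone GIP, was at -0.29, -3.85, 1.01, -3.47, 0.99 and 0.67 (23.0-fold and 20.0-fold lower) and was lowest on ZT4. Abcc8, the sulphonylurea receptor, was 4.55-fold and 6.55-fold lower on the brighter of 2 probes that both passed. Cacna1d, a calcium channel gene, was at least 13.0-fold and 9.50-fold lower, but its second probe did not differ (0.00). The gene above was Trpm2 (3.63-fold and 4.33-fold), a cation channel that immune cells also carry. Glp1r (-0.33 and 0.03) and Slc17a9 (0.14 and -0.12) were not called.

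Of 20 vesicle fusion genes, 11 were below and 1 above, beside 11.8% and 14.4% of all genes. Median differences of the list were -1.22 and -1.48. Syt7, a calcium sensor of exocytosis, was at -1.89, -4.79, -1.22, -4.98, -0.67 and -0.93, 11.9-fold and 8.82-fold lower, and Syt4, not above background on ZT4 or on 1 other array, was 16.2-fold and 12.7-fold lower by the floor. Syt13 (3.12-fold and 5.25-fold) and Vamp2 (2.80-fold and 2.68-fold) were below, whereas the fusion genes Snap25 (0.96 and 0.17), Nsf (-0.37 and -0.37) and Napa (0.89 and -0.24), used in most secretory cells, were not called. The gene above, Cacnb3, was higher on ZT12, and without ZT0 or ZT20 the count above was 0.

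Over the endocrine genes below, 14 had several probes, and all probes passed the limit in 6 of them. Genes with a long genomic span were below more often: of the 4201 genes of longest span 20.6% were below and 10.9% above, against 8.86% and 17.1% of the 4201 of shortest span. Of the 2838 genes below, 317 were not well above background on the dim ZT4 array and have a bound only. The part of span or brightness in the endocrine result was not tested.

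The Reg family holds secreted lectins of acinar and islet cells in injury and inflammation. Of its 7 genes, 4 were below and 1 above, beside 11.8% and 14.4% of all genes. Reg2 was at 3.82, -1.34, 3.85, -2.94, -0.23 and 7.16, 35.7-fold and 32.2-fold lower, and Reg3b at 2.52, -2.31, 2.10, -3.88, -1.38 and 5.72, 21.3-fold and 23.0-fold lower. Both varied widely among the other arrays, with ZT20 highest and ZT12 under ZT4. The member above was Reg4, an enteroendocrine and goblet cell gene, at -6.73, -3.15, -4.93, -7.80, -7.34 and -7.61 and detected on 2 of the others. Reg4 had been kept for its detection on ZT4, and of the other 6 genes 0 were above. Reg1 was not called (0.01 and -1.34). The median of the smaller difference per gene, -1.94, was -0.65, -0.55 and -0.42 without ZT0, ZT8 and ZT20.

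Of 17 core clock genes, 6 (35.3%) were below and 0 above, beside 11.8% and 14.4% of all genes. Per2, a repressor of the clock, was at -1.56, -5.03, -0.40, -1.65, -0.01 and -0.10 and under background on ZT4, at least 23.9-fold and 18.5-fold lower. Clock, at 1.21, -2.81, -0.16, -1.28, 0.75 and 0.87, and Rora, at -1.72, -4.53, -1.12, -2.29, -1.51 and -0.60, were also at least 2-fold below each other array. Arntl was lowest on ZT4 (2.96-fold and 2.72-fold lower), whereas Dbp (0.50 and 0.11) and Nr1d1 (0.18 and 0.45) were not called. Without ZT0 or ZT8, 1 clock gene was above. Among 13 reference genes, Ywhaz alone was called, at -0.47, -4.07, 0.11, -0.82, -1.42 and -0.73, 10.1-fold and 8.27-fold lower. It had several probes and not all passed, so that 0 reference genes were below when all probes had to pass. The list's median was 0.53 on one scaling and -0.39 on the other. Without ZT0, ZT8 or ZT12, 1 reference gene was above.

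Over all genes detected on the 6 arrays, 6 of the 10 furthest above were gut list members, Spink4, Fabp2, Guca2a, Lgals4, Mep1a and Cdx1, and Marco was a member of the macrophage list. The other 3 were Hoxa11os, a non-coding RNA of the Hoxa cluster, at -5.07, 1.31, -4.79, -4.62, -4.86 and -4.67, Noxa1, an activator of the epithelial NADPH oxidase of colon, at -4.49, 1.30, -3.75, -2.65, -4.83 and -4.47, and Cyp2c55, a cytochrome P450 of colon, at -3.23, 2.26, -3.78, -3.93, -3.86 and -2.78. Each was more than 3 log2 units over every other array. The lists were chosen with earlier results of these data known, so the overlap of the 10 genes with them is a description. The 10 furthest below were Reg2, Lrrn1, Golm2, Lrp11, Reg3b, Gipr, Ghr, Sacm1l, Dst and Vps35. Sacm1l, a phosphoinositide phosphatase, was at -0.24, -4.48, 0.04, -0.35, 0.10 and 0.79, and Vps35, a retromer subunit, at 0.84, -3.57, 1.06, 0.18, 0.89 and 1.68. These 2 were low on ZT4 alone, whereas Lrrn1, at 2.56, -2.58, 1.62, -2.34, 2.54 and 2.82, was as low on ZT12. With a bound only, the furthest below were Klhl7 (at least 49.7-fold and 40.2-fold), Gng4, Fndc3a, Zdhhc2 and Pax6.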

How the data were processed

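Total RNA of pooled islets was measured on 6 single-colour Agilent arrays. Per the file headers and the submitters' processing notes, Agilent Feature Extraction 11.0.1.1 made the scanner files; the authors deposited a linear processed intensity per spot, background-subtracted and not normalized between arrays. The authors also deposited a log2 table that holds 30170 probes, in which the median of a column was 8.62 to 8.63. Each column correlated with its own array at 0.9987 to 0.9998, which settles scale and direction; the normalization behind it is not given in the sources used here.

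Control spots and outlier spots were left out and the spots of a probe averaged, which removed 1537 of 39429 probes, 1489 of them for the ZT0 array. Probes well above background on ZT4 or on at least 3 others numbered 29091, of which 28794 were in the deposited table. The probe of highest mean level stood for a gene. RefSeq symbols (GRCm38.p6) were matched to 27234 probes (69.1%). Similar paralogs (Ins1 and Ins2, Lyz1 and Lyz2, Hbb, Try, Saa and Reg genes) may share probe signal. Members and lists were chosen with earlier results of these data known, so their counts are descriptions.

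Genes named were, per list, up to 8 called in each direction by the smaller of both differences, up to 3 called against the list and up to 3 bright ones not called; the markers Spink4, Fabp2, Guca2a and Lgals4; and over all genes 10 furthest above, 10 furthest below and 5 with a bound. Others, among them dim or absent defining genes and the genes absent from the deposited table, were chosen after their values were seen. Some genes that the rule names are not reported here. The number of arrays limits the precision. Python 3.11.15, numpy 2.4.6, pandas 2.3.3, R 4.3.3 and limma 3.58.1 were used. The calling steps were run on simulated arrays with even noise and a fixed offset per array. These held no trend with brightness or span and no effect of scan or pool, so they cannot speak to such effects on ZT4. Alternatives covered scaling, background correction, floor, filter, fold limit, probes, reference level and each array left out.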

Additional observations from a re-analysis of the deposited data

How the results depend on the processing

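The counts of 3480 genes above and 2838 below stayed within 1.5 times in the other settings tried for scaling, background correction, floor, filter, probes and reference level (2683 to 4474 above, 2398 to 4073 below). The exceptions were the 75th percentile scaling alone, which gave 5352 above, and the limits by construction: 919 above and 728 below at 4-fold, 5911 and 4907 at 1.5-fold, and 403 and 527 beyond every other array. Leaving out each of the other arrays gave 2921 to 3993 above and 2451 to 3274 below. Keeping outlier spots, chosen after seeing the data, gave 3536 and 2932. A setting that dropped a gene, as for genes not detected on all 6 arrays, was not counted against it. In those of the 17 settings with a single difference that kept the gene, 138 of 172 named called genes stayed past 2-fold. The other 34 fell under it at least once. Among the latter Fga, of the hepatocyte list, reversed and came to -0.25 with normexp background correction and quantile normalization, against 1.02 and 1.29, and the cause was not tested. Requiring all probes of a gene to pass left 41 gut, 29 lymphoid and 10 smooth muscle genes above and 49 endocrine genes below. Gut genes above numbered 29 when only genes detected on all 6 arrays were kept, since that setting drops genes detected on ZT4 and few others. No paired analysis was possible because each time point had 1 array. The dimness of the ZT4 array (66.1% of spots well above background) limits what can be said of weak transcripts there, which have bounds only.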

Other observations

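Genes of 3 families outside the lists, chosen after their values were seen, were also high on the ZT4 array. Hox genes, which carry positional identity along the body and gut axis, were above for 11 of 22 measured members and below for 0, beside 14.4% and 11.8% of all genes, with median differences of 1.01 and 1.23; ZT12 was the next array for 8 of the 11. Hoxa7 was at -1.95, 1.30, -1.44, -0.33, -4.37 and -4.58, 9.51-fold over the median on the 75th percentile scaling. Hoxc12 was not called (differences of -0.51 and -0.27). The authors' values lack Hoxb13 and Hoxa11, each kept for its detection on ZT4 and on 1 other array. Hoxb13, a hindgut gene, was at -8.93, 0.86, -8.10, -7.80, 0.03 and -7.56, high on ZT4 and ZT16 and at least 90.7-fold over the median, and Hoxa11 was at -1.93 on ZT4 and at least 13.1-fold higher.

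Carboxylesterases of the Ces2 family, which gut and liver make, were above for 4 of 4 measured members, beside 14.4% of all genes. Ces2c was at -2.11, 1.56, -2.34, -2.07, -2.46 and 0.13, 12.7-fold higher, and Ces2a, compared on the 75th percentile scaling only, was at least 155-fold higher, with 1.64 on ZT4 and 0.98 on ZT20. Of the Gsdmc genes, gasdermins of gut epithelium, 2 of 2 measured were above. As these families were chosen after their values were seen, the counts are descriptions and no result. Gsdmc was at -2.64, 1.30, -2.01, -3.01, -0.65 and -1.60, and Gsdmc4, on the one scaling, was at 2.45 on ZT4 and at least 272-fold higher. Ces2a and Gsdmc4 had each been kept for detection on ZT4, with 1 other array well above background.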
